A study of Homo sapiens with 6 samples.

Results

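In HL-60 cells, 1644 promoter regions carried a SUMO-2/3 peak in mock-treated cells and again under cytosine arabinoside (Ara-C), but none under daunorubicin (DNR). They were picked from the deposited peak lists of the 3 conditions by merging touching peaks and keeping merged regions that held a mock and an Ara-C peak, held no DNR peak, and had their midpoint within 1 kb of a transcription start site (TSS) of a protein-coding gene. A segment of the long arm of chromosome 8 and the first and last 1 Mb of each chromosome were set aside. The 3 lists gave 139089 merged regions in all. The chosen regions lay near the TSSs of 1801 genes. Presence or absence of a peak is what chose them, so it is described here and not tested.

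HL-60 is a human acute myeloid leukaemia line. The cells received the vehicle (water), 2 µM Ara-C or 1 µM DNR for 2 h, and chromatin bound to proteins carrying SUMO-2/3 was immunoprecipitated and sequenced. Each library pooled 3 biological replicates, so every condition had 1 library and 1 peak list, no comparison has a replicate check, and all groups were the same cell line. The 95% Wilson intervals given with shares cover counting error only. The deposited files gave 44265 peaks for mock, 72279 for Ara-C and 33355 for DNR, with widths but no heights or read numbers, so depth is unknown. A region without a DNR peak is one where the DNR signal did not pass the fixed calling threshold.

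SUMO-2/3 are small ubiquitin-related proteins that a chain of enzymes attaches to lysines of other proteins and that SUMO proteases take off again. On chromatin their targets include transcription factors, co-repressors and histones, and SUMO is found at promoters of housekeeping genes as well as at genes read by RNA polymerase III. Ara-C is a nucleoside analogue that blocks DNA synthesis, and DNR is an anthracycline that intercalates into DNA and traps topoisomerase II.

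The sequences below come from stretches of the regions that lay outside every annotated exon, and are printed 5′ to 3′ from hg19. The first set shows the CTCF core motif, in capitals, in the 5 regions with the motif whose midpoints were closest to a TSS and whose motif stood clear of exons. CTCF is the zinc finger protein that anchors chromatin loops.
NECAP2, chr1:16767087-16767146, plus strand: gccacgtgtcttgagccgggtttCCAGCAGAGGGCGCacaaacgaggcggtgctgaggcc
MTMR6, chr13:25861653-25861712, minus strand: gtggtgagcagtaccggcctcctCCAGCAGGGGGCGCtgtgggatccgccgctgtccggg
CHRNA7, chr15:32270187-32270246, plus strand: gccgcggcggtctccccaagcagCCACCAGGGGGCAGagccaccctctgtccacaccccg
FLT3LG, chr19:49977384-49977443, plus strand: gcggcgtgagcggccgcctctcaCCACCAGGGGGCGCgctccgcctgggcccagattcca
MB, chr22:36019485-36019544, minus strand: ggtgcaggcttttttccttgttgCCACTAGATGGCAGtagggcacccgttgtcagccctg

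The second set shows the ETS motif CCGGAAG, searched on both strands and in capitals here, in the 4 regions with the most matches in their central exon-free stretch. Each held 2. ETS factors are a family of activators that bind many housekeeping promoters. VPS25 encodes a subunit of the ESCRT-II sorting complex, LYPLA2 a protein depalmitoylase, ATR the kinase of the replication stress checkpoint, and DIAPH3 a formin that builds actin filaments.
VPS25, chr17:40925308-40925457, plus strand: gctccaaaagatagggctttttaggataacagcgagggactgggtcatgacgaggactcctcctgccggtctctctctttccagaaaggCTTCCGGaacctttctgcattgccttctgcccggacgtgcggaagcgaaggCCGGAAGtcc
LYPLA2, chr1:24117501-24117634, plus strand: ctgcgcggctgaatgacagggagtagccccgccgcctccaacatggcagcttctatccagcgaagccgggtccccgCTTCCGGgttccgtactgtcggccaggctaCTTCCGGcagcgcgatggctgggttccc
ATR, chr3:142297613-142297762, minus strand: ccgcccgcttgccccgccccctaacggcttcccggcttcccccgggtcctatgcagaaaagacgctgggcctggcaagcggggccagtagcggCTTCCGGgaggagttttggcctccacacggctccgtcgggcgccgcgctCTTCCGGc
DIAPH3, chr13:60738106-60738255, minus strand: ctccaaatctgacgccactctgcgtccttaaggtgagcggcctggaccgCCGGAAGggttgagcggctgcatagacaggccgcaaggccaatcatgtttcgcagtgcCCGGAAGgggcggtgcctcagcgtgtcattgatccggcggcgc

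The third set shows pairs of A and B boxes, in capitals, from the widest regions that held such a pair. These boxes form the internal promoter of tRNA genes, which RNA polymerase III reads. The pair was searched as a consensus on both strands, with 20 to 70 bases between the boxes, and this search was added after the regions had been seen. The matches lay upstream of the coding gene named, and each is printed on the strand of the match.
HMGN4, chr6:26537723-26537800, plus strand: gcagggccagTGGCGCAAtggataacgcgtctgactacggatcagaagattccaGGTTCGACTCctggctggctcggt
AGBL5, chr2:27273647-27273740, plus strand: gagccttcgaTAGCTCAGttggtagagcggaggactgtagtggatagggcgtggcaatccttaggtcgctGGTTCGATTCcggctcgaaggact
CYTH4, chr22:37677628-37677707, minus strand: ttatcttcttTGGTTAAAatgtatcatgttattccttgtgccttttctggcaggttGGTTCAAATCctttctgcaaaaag
LASP1, chr17:37025543-37025619, minus strand: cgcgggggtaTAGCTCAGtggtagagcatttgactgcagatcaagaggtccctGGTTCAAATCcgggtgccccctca
ANG, chr14:21151429-21151522, plus strand: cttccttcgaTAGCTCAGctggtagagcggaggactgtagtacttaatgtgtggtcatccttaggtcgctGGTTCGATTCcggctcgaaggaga

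The last pair shows the part shared by the mock and Ara-C peaks at 2 named genes, picked by hand, which stand for no class of promoters. Capitals mark GGGCGG and CCAAT on either strand. The stretch of RPL32, a ribosomal protein gene, held 1 of each, and that of ICAM1, an adhesion molecule induced in inflammation, held none.
RPL32, chr3:12883225-12883474, minus strand: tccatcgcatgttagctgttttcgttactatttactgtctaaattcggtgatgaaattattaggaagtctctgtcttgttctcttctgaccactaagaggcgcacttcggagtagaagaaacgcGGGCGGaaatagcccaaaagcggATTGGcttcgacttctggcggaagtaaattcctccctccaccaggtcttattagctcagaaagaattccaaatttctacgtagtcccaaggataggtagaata
ICAM1, chr19:10381251-10381450, plus strand: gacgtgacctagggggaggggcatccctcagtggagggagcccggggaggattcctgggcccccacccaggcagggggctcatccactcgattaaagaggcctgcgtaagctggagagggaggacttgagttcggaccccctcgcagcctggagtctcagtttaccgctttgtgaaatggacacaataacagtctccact

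The absence of a DNR peak was the rule at promoters where mock and Ara-C peaks met. Of 1785 such promoter regions, 92.1% had no DNR peak (interval 90.8 to 93.3%). Of 5158 regions with both peaks farther from TSSs, 89.1% had none (88.3 to 90.0%). Over all 6943 regions with both peaks it was 89.9%. The other 141 promoter regions had a peak in all 3 lists. Absence of a DNR peak was no less common where Ara-C had no peak either, with 2660 promoter regions of a mock peak alone against 51 of mock and DNR peaks without Ara-C. The DNR list itself placed 1153 peaks (3.46%) at promoters, against 4526 mock peaks (10.2%) and 5677 Ara-C peaks (7.85%).

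The share without a DNR peak was lower where the peaks were wide. It was 96.0% (93.4 to 97.7%) over 329 promoter regions with mock peaks under 200 bp and 85.6% (80.8 to 89.3%) over 263 regions with mock peaks from 400 to under 600 bp. Over 57 regions with mock peaks of 600 bp or more it was 86.0% (74.7 to 92.7%). Wide Ara-C peaks gave a like picture, from 94.7% under 200 bp to 83.8% (73.8 to 90.5%) at 600 bp or more. Most wide promoter regions were thus also without a DNR peak. By position, the share was 90.7% from 1000 to 500 bp upstream, 88.3% from 500 to 250 bp upstream, 93.6% from 250 bp upstream to the TSS, 93.0% from the TSS to 250 bp downstream, 89.7% from there to 500 bp and 89.7% beyond.

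The regions were centred just upstream of the TSS. The median midpoint lay 70 bp upstream, with quartiles of -205 and 30.2 bp (negative upstream), and 68.3% of midpoints were upstream (66.0 to 70.5%). The fullest 100 bp bin, directly before the TSS, held 25.5% of the regions. The nearest TSS was within 250 bp for 67.5% (65.2 to 69.7%). This share was 55.3% (47.1 to 63.3%) in promoter regions of all 3 lists and 43.0% (41.1 to 44.9%) in promoter regions with a mock peak alone. Upstream placement was alike in promoter regions of all 3 lists, with a median of -76 bp and 66.7% of midpoints upstream (58.5 to 73.9%). In mock-alone promoter regions 50.2% of midpoints were upstream (48.3 to 52.1%). Promoter regions with a DNR peak alone were spread wide of the TSS, at a median distance of 483.5 bp, against 143 bp for the regions described here.

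**Figure D1:**
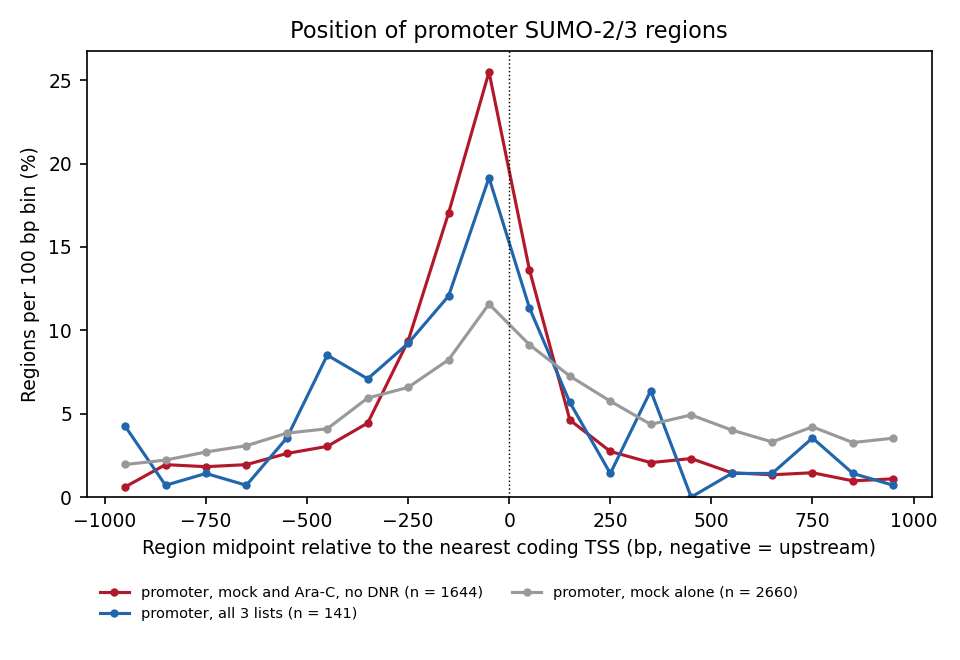
Share of regions (%) in each 100 bp bin of the distance from the nearest coding TSS to the region midpoint, negative values upstream, for regions with mock and Ara-C peaks and no DNR peak, regions of all 3 lists and regions with a mock peak alone. The first set peaks at 25.5% in the bin directly upstream of the TSS, and the mock-alone set is flatter.

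By annotation, 40.6% of the midpoints lay outside coding genes, 31.9% in introns, 21.6% in untranslated exons and 5.96% in coding exons. TSSs on both strands stood within 1 kb in 12.5% of the regions (11.0 to 14.2%), against 10.4% (9.31 to 11.6%) for mock-alone promoter regions. Promoter regions of all 3 lists had 11.3% (7.11 to 17.6%), an interval that holds the 12.5%. A single gene was near 1404 regions and 240 had 2 or more. DST and MYH9 were among the genes with 3 regions. At the edge of the window, the 2 regions just inside were at HJV, 1000 bp downstream, and LAPTM5, 996 bp downstream. The 2 just outside were both 1010 bp upstream of a TSS, of SCN8A and of RAB11FIP1.

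GC content had a median of 62.0% over the regions and quartiles of 56.6 and 66.5%. Regions of all 3 lists had a median of 61.2%, promoter regions with a mock peak alone 58.7%, and distal regions with the same peak pattern 50.6%. The ratio of observed to expected CpG, a mark of CpG islands, had medians of 0.792 in the regions, 0.741 in all 3 lists, 0.653 in mock-alone promoter regions and 0.279 in the distal regions. In windows of 300 bp the median GC content was 62.3% for the regions and 60% for all coding gene starts, and the CpG ratio 0.790 and 0.692.

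Peak widths were nearly the same in mock and under Ara-C. Merged regions were 150 to 1250 bp wide, with a median of 350 bp and quartiles of 250 and 450 bp. The mock peaks and the Ara-C peaks both had a median of 250 bp. Where a region held more than 1 peak of a list, the width of the widest is given, here and below. In 97.3% of regions each list had 1 peak. The mock peak was the wider in 36.0% of regions (33.7 to 38.4%), the Ara-C peak in 43.6% (41.2 to 46.0%), and both were equal in 20.4%. Mock and Ara-C peaks overlapped in 95.3% of regions, and their midpoints lay a median of 50 bp apart. Both values follow largely from the choice of regions, since peaks were merged only where they touched. Both peaks were at least 300 bp wide in 359 regions, or 21.8%, and 80 regions rested on peaks of the minimum 150 bp in both lists.

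The widest regions lay at genes of varied function. ARID1A, a subunit of the BAF chromatin remodeller, had a 1250 bp region (chr1:27018701-27019950) centred 402 bp upstream of its nearest TSS. That region held a mock peak of 1200 bp and 2 Ara-C peaks, the wider of 600 bp. A second ARID1A region of 500 bp had peaks of 450 and 500 bp. ANXA2R, a receptor for annexin A2, also had a 1250 bp region, with 2 peaks in each list, the wider of 750 and 600 bp. The region of 1050 bp between ELP2, an Elongator subunit, and SLC39A6, a zinc transporter, had 2 mock peaks, the wider of 400 bp. Its Ara-C peak was 600 bp wide. HMGN4, a nucleosome-binding protein, had peaks of 900 and 1000 bp within 1050 bp. ZNF518A, AGBL5, CFAP298 and the histone gene H4C8 had regions of 1000 bp, and MAP1LC3B2 and GPR180 had regions of 950 bp. For comparison, the widest promoter region with peaks in all 3 lists was the 1300 bp region of PDE4A, a cAMP phosphodiesterase.

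Some regions differed in width between mock and Ara-C. PISD, which makes phosphatidylethanolamine in mitochondria, had a 200 bp mock peak and an 850 bp Ara-C peak. The promoter shared by PRR11 and SKA2 had peaks of 200 and 800 bp. CIC, a transcriptional repressor, had 2 mock peaks, the wider of 350 bp, and an Ara-C peak of 900 bp. In the other direction, CFAP20 had an 850 bp mock peak and a 150 bp Ara-C peak, the linker histone gene H1-4 likewise 850 and 150 bp, and C18orf32 850 and 200 bp. These 6 were named for the size of the difference, which has no replicate.

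**Figure D2:**
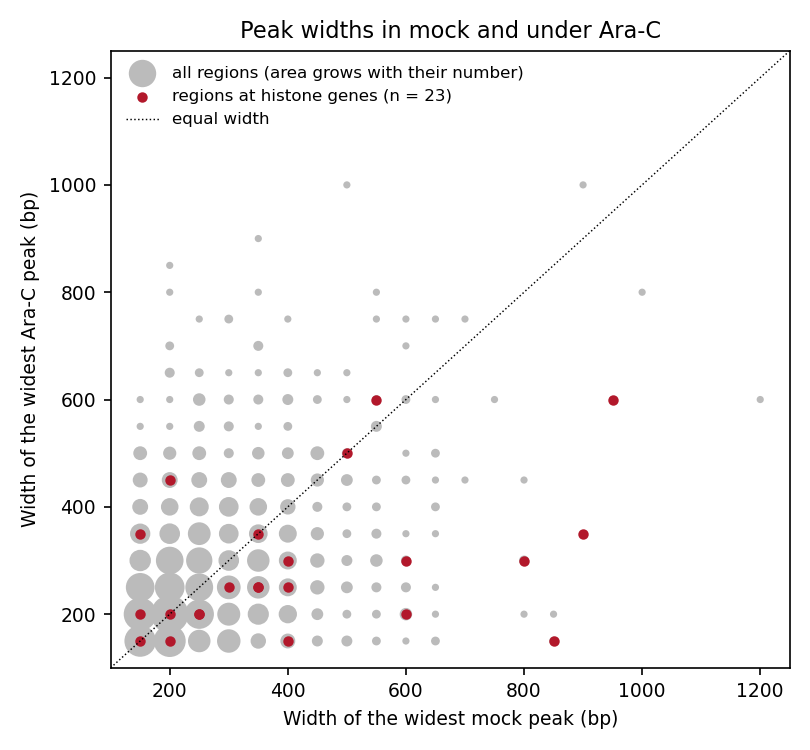
Width of the widest mock peak (x, bp) against width of the widest Ara-C peak (y, bp) in each of the 1644 regions, the dot area growing with the number of regions at that pair of widths. Red dots are the 23 regions at histone genes, of which 15 lie below the dotted line of equal width.

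DNR peaks were not next door to most of these regions, nor to most coding gene starts. The gap to the nearest DNR peak ranged from 50 to 1553900 bp, with a median of 20025 bp and quartiles of 7238 and 46500 bp. With peaks under 200 bp left out of all lists the median was 43200 bp. A DNR peak lay within 500 bp of 59 regions (3.59%), within 1 kb of 108 (6.57%) and within 10 kb of 30.7%. The median gap was 21200 bp for mock-alone promoter regions, 15850 bp for the distal regions and 30136 bp for all coding gene starts. The mock-alone and distal sets were, like the regions, chosen for having no DNR peak within them. At the near end, EVA1B, MCMBP, CDC42EP2, the EARS2 and UBFD1 promoter, and ARHGAP45 each had a DNR peak at a gap of 50 bp. Among those at the far end were AMER1 and RHOXF1 on chromosome X and ENSG00000289653 and ERI1 on chromosome 8, with gaps of 793000 to 1553900 bp. Of the 1801 genes, 121 (6.72%) had a DNR peak elsewhere within 1 kb of one of their TSSs, close to the 6.08% of all 19132 coding genes considered.

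**Figure D3:**
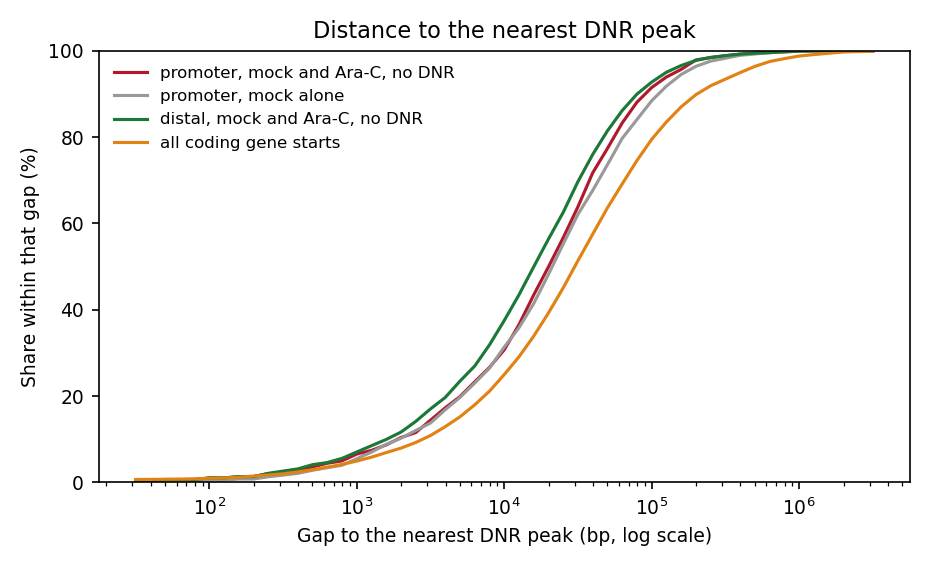
Share (%) of regions or gene starts with a DNR peak within the gap on the x axis (bp, log scale), for promoter regions with mock and Ara-C peaks and no DNR peak, mock-alone promoter regions, distal regions with the same pattern and all coding gene starts. The curves of the first pair run close together, with medians of 20025 and 21200 bp, and all coding gene starts lie to the right with 30136 bp.

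Of the 19132 coding genes with a TSS outside the excluded segments, 9.41% had such a region. For 23 gene lists the share was set against this share, with no test. The lists were chosen with earlier results of these data in view. A second share was taken over those genes of a list that had a mock peak midpoint within 1 kb of a TSS. That share was 41.9% over all coding genes (1796 of 4290). It was 70.3% for histones, 66.7% for CTCF and cohesin genes, 61.9% for translation factors, 61.0% for splicing factors, 60% for the SUMO pathway, 58.3% for small nucleolar RNA hosts and 57.1% for granule proteins. Synthetases and the proteasome had 55.0%, myeloid factors 53.8%, mitochondrial ribosomal proteins 52.4%, cytoplasmic ribosomal proteins 50%, chromatin-modifying enzymes 48.1%, and the NF-kB and RNA polymerase II lists 47.1%. Below the share of all genes were immediate-early genes with 40%, DNA replication with 36.0%, DNA damage with 35.0%, chaperones with 34.3%, ZNF genes with 33.3%, oxidative phosphorylation with 30.6%, MHC class I with 28.6% and interferon genes with 12.5%. The lists with few mock-marked genes rest on small counts, and no intervals were taken for this second share. There were 5 such genes in the SUMO pathway and 6 in the CTCF list. The granule and MHC class I lists had 7 each, the interferon list 8 and the immediate-early list 10. This share turns on a touching Ara-C peak as well as on the absence of a DNR peak. Of promoter regions with mock and Ara-C peaks, 92.1% had no DNR peak.

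Histone genes expressed during DNA replication had the highest share. A region was found at 26 of 63 of them (41.3%, interval 30.0 to 53.6%) and at 26 of the 37 with a mock peak (70.3%). A DNR peak near a TSS was found at 5 of the 63, where all coding genes had one in 6.08%, and 3 had a region of all 3 lists. Some neighbouring genes shared a region and some genes had more than 1, and the 26 genes held 23 regions in all. They were at core histone genes such as H4C8 and H4C3 and at the linker histone genes H1-2 and H1-4. The H4C3 region was 950 bp wide with mock and Ara-C peaks of 900 and 350 bp, and the H1-2 region was 950 bp wide with peaks of 800 and 300 bp. Of the 23 regions, 15 had the wider peak in mock (65.2%), 4 under Ara-C and 4 had equal peaks, against 36.0% wider in mock over all regions. This contrast was noticed after the values were seen. These genes are near copies of each other, and the lists were made from uniquely placed reads. Most stand in dense clusters on chromosome 6, where 15.6% of coding genes had a region.

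Genes of protein synthesis were between 21.8% and 29.7%. Of 37 aminoacyl-tRNA synthetases, which charge tRNAs, 11 had a region (29.7%, 17.5 to 45.8%), among them SARS2 with 500 bp and EARS2, TARS2 and WARS1 with 400 bp each. Of 77 mitochondrial ribosomal protein genes, 22 had one (28.6%, 19.7 to 39.5%), the widest at MRPL13 and MRPS12 with 500 bp. SARS2 and MRPS12 shared 1 region. Cytoplasmic ribosomal protein genes had 17 of 78 (21.8%, 14.1 to 32.2%), with RPL23 at 600 bp and RPL32 and RPL5 at 550 bp. The mock and Ara-C peaks of RPL23 were 150 and 450 bp and those of RPL5 were 500 and 400 bp. Translation initiation and elongation factors had 13 of 58 (22.4%, 13.6 to 34.7%), including EIF3G at 550 bp and EIF2D at 500 bp. A DNR peak near a TSS was found at 3 of the synthetases, 2 genes in each ribosomal protein list and 1 translation factor, where all coding genes had one in 6.08%.

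Genes of RNA processing and protein turnover were also above the share of all genes. Splicing factors and hnRNPs, proteins that package and splice pre-mRNA, had 36 of 131 (27.5%, 20.6 to 35.7%). HNRNPU and HNRNPUL1 had regions of 650 bp and HNRNPK and RBM39 of 600 bp. Proteasome subunits and assembly factors had 11 of 46 (23.9%, 13.9 to 37.9%), with PSMG2 at 750 bp and PSMD4 at 600 bp. The PSMG2 region had a DNR peak 200 bp away. Coding hosts of small nucleolar RNAs had 7 of 34 (20.6%, 10.3 to 36.8%).

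Chromatin and transcription genes followed. The list of chromatin-modifying enzymes, which takes in all sirtuins, had 26 of 134 (19.4%, 13.6 to 26.9%). After ARID1A, its widest regions were at SIRT4, a mitochondrial sirtuin, with 550 bp and at the histone deacetylase HDAC2 and the histone demethylase KDM3A with 500 bp. Among RNA polymerase II subunits, general factors and Mediator, 16 of 101 had a region (15.8%, 10.0 to 24.2%), the widest at HEXIM1, an inhibitor of the elongation factor P-TEFb, with 700 bp and at TAF7 with 650 bp. The list of CTCF, cohesin, condensin and related factors had 4 of 25, at the cohesin subunit STAG1, the cohesin acetyltransferase ESCO1 and the zinc finger proteins ZNF143 and MAZ. ZNF143 is counted in the ZNF list too. The 3 regions in the SUMO pathway itself were at the SUMO proteases USPL1 (750 bp) and SENP1 (550 bp) and at the SUMO-targeted ubiquitin ligase RNF4 (300 bp), of 27 genes listed.

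Myeloid and signalling genes had small numbers. Of 37 myeloid transcription factors, 7 had a region (18.9%, 9.48 to 34.2%), including RUNX1 (600 bp, mock 300 and Ara-C 450 bp), GFI1 (regions of 500 and 350 bp) and TCF12 and TCF3 (450 bp each). MPO, the myeloperoxidase of neutrophil granules, had 2 regions of 750 bp, with mock peaks of 550 and 650 bp and Ara-C peaks of 750 bp in both, and CTSC, BPI and GRN were the other granule genes. The NF-kB list had 8 of 43 (18.6%, 9.74 to 32.6%). ICAM1 had a 550 bp region (chr19:10381101-10381650) centred 394 bp upstream, with a 550 bp mock peak and a 200 bp Ara-C peak. NFKB2, the p100 precursor, had a 450 bp region with a DNR peak 450 bp away. Among immediate-early genes JUN had 2 regions of opposite pattern: the 850 bp region had a 200 bp mock peak and a 700 bp Ara-C peak, and the 650 bp region had a 650 bp mock peak and a 150 bp Ara-C peak. The others were at MCL1, KLF4 and ATF3.

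Of the other lists, only the ZNF family had an interval wholly below 9.41%, and the rest had intervals that held it. The intervals of the CTCF and cohesin, SUMO, granule and immediate-early lists above held it too. The DNA damage list had 7 of 45 (15.6%, 7.75 to 28.8%), with MDC1 at 750 bp, RPA2 at 550 bp, MDM4 at 400 bp and ATR at 300 bp. Heat shock proteins and chaperones had 12 of 95 (12.6%, 7.38 to 20.8%), led by DNAJA1 at 700 bp, oxidative phosphorylation 11 of 95 (11.6%, 6.59 to 19.6%), led by ATP5MJ at 650 bp, and DNA replication and cell cycle genes 9 of 81 (11.1%, 5.96 to 19.8%), led by PRIM2 at 550 bp. MHC class I genes had 2 of 21, CALR at 800 bp and TAP2 at 350 bp. Zinc finger genes of the ZNF family had 29 of 456 (6.36%, 4.46 to 8.98%), with ZNF518A at 1000 bp and ZNF24 and ZNF564 at 750 bp. The interferon list had 1 of 36 (2.78%, 0.492 to 14.2%).

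**Figure D4:**
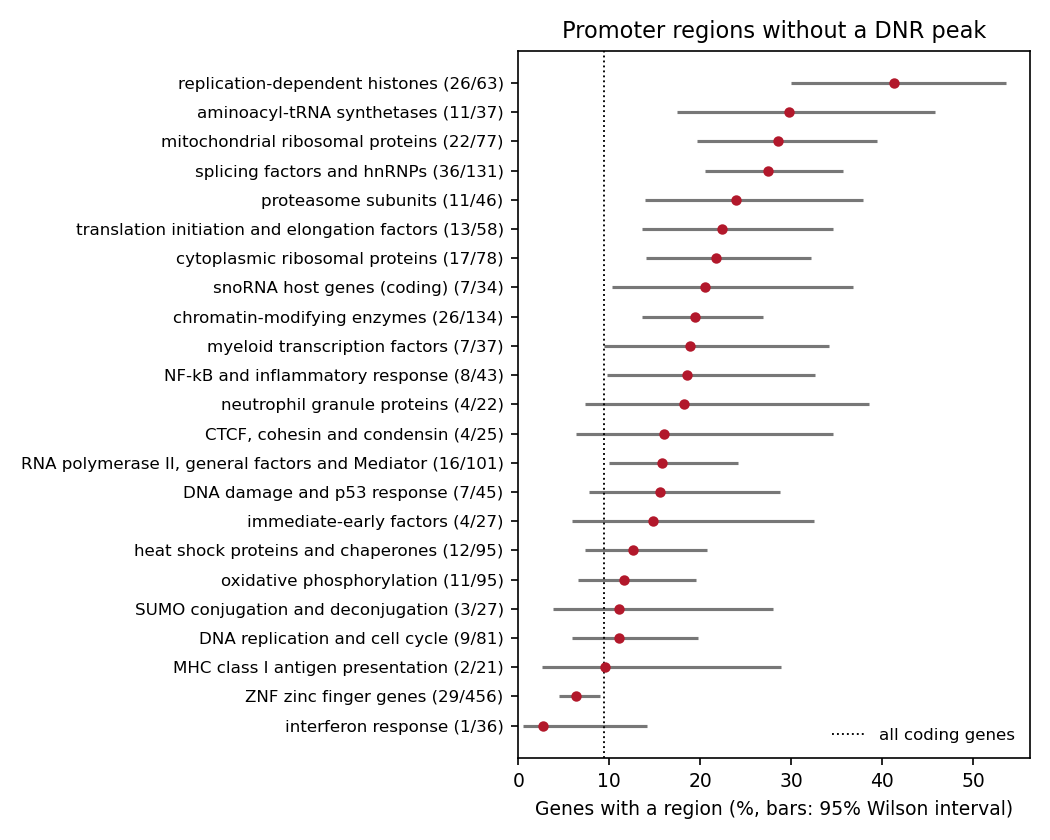
Share of genes (%) in each of 23 lists that had a promoter region with mock and Ara-C peaks and no DNR peak, with bars for 95% Wilson intervals and numbers of genes in brackets. Histone genes stand highest at 41.3% and the interferon list lowest at 2.78%, and the dotted line is the 9.41% of all coding genes.

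The regions were not spread evenly over chromosomes. The share of coding genes with a region was 20.2% on chromosome 18, 18.1% on 13, 17.1% on 22 and 15.6% on 6, with a median of 9.11% over the 22 autosomes and 1.78% on X. Peaks of all 3 lists were dense on the same chromosomes. Chromosome 18 had 35.7 mock, 55.4 Ara-C and 33.3 DNR peaks per Mb, against autosome medians of 12.8, 21.7 and 10.1. Chromosome 13 had 33.1, 48.0 and 25.5, chromosome 22 had 25.5, 40.2 and 24.9, and X had 2.05, 4.62 and 1.15. The part of peak density in these shares was not tested. On chromosomes 13, 18 and 22 together, 168 of 183 promoter regions with mock and Ara-C peaks had no DNR peak (91.8%), close to the 92.1% of all.

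Motifs were counted in windows of 300 bp around the region midpoints, on both strands, beside windows from 250 bp upstream to 50 bp downstream of all coding gene starts. The ETS motif CCGGAAG was in 19.2% of the windows (17.3 to 21.1%), against 11.6% of gene starts, 8.95% of mock-alone promoter regions and 3.00% of distal regions. Promoter regions of all 3 lists had it in 16.3% (11.1 to 23.3%), an interval that holds the 19.2%. The GC box GGGCGG was in 52.7%, against 51.9% of gene starts and 38.6% of mock-alone promoter regions. It was in 46.8% (38.8 to 55.0%) of all 3 lists, an interval that holds the 52.7%. The TATA box TATAAA was in 4.62% (3.71 to 5.75%), against 10.9% of gene starts, 7.03% of mock-alone promoter regions and 5.67% (2.90 to 10.8%) of all 3 lists, an interval that holds the 4.62%. The AP-1 motif TGANTCA was in 4.38% (3.49 to 5.48%), against 6.46% of gene starts, 5.83% of mock-alone promoter regions, 12.6% of distal regions and 7.09% (3.90 to 12.6%) of all 3 lists, an interval that holds the 4.38%. The E-box CACGTG was in 11.4%, against 8.34% of gene starts, 8.20% of mock-alone promoter regions and 9.93% of all 3 lists.

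The CTCF core motif was in 3.35% of these windows (2.58 to 4.33%). The share was 0.361% (0.285 to 0.457%) at all coding gene starts, 0.489% in mock-alone promoter regions, 4.96% (2.43 to 9.89%) in promoter regions of all 3 lists and 10.6% in the distal regions. Over whole regions, 59 had the motif. The 5 closest to a TSS were at NFE2L2, the regulator of the antioxidant response, whose midpoint lay at the TSS, and at HINT3, NECAP2, ENSG00000251357 and PSORS1C1. Of promoter regions with mock and Ara-C peaks, 59 of 68 with the motif had no DNR peak (86.8%, 76.7 to 92.9%), against 92.3% (91.0 to 93.5%) without it, and these intervals overlap.

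The remaining motifs are given beside gene starts. CCAAT was in 32.3% of windows (30.1 to 34.6%) against 36.0% of gene starts (35.3 to 36.7%), CAGCTG in 18.7% against 16.9%, the heat shock element GAANNTTC in 5.72% against 6.04%, the PU.1 motif GAGGAAGT in 3.35% against 2.44%, and the YY1 motif AAGATGGC in 2.80% against 3.00%. The CRE TGACGTCA was in 2.31% against 2.30%, the NRF1 motif GCGCATGCG in 1.58% against 2.34%, the Kaiso motif TCTCGCGAG in 0.791% against 0.816%, the ZNF143 motif ACTACAATT in 0.730% against 0.377%, and the NF-kB motif GGGACTTTC in 0.669% against 0.377%. CCAAT and CAGCTG are short and occur often in any sequence, and ACTACAATT and GGGACTTTC rest on 12 and 11 windows.

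**Figure D5:**
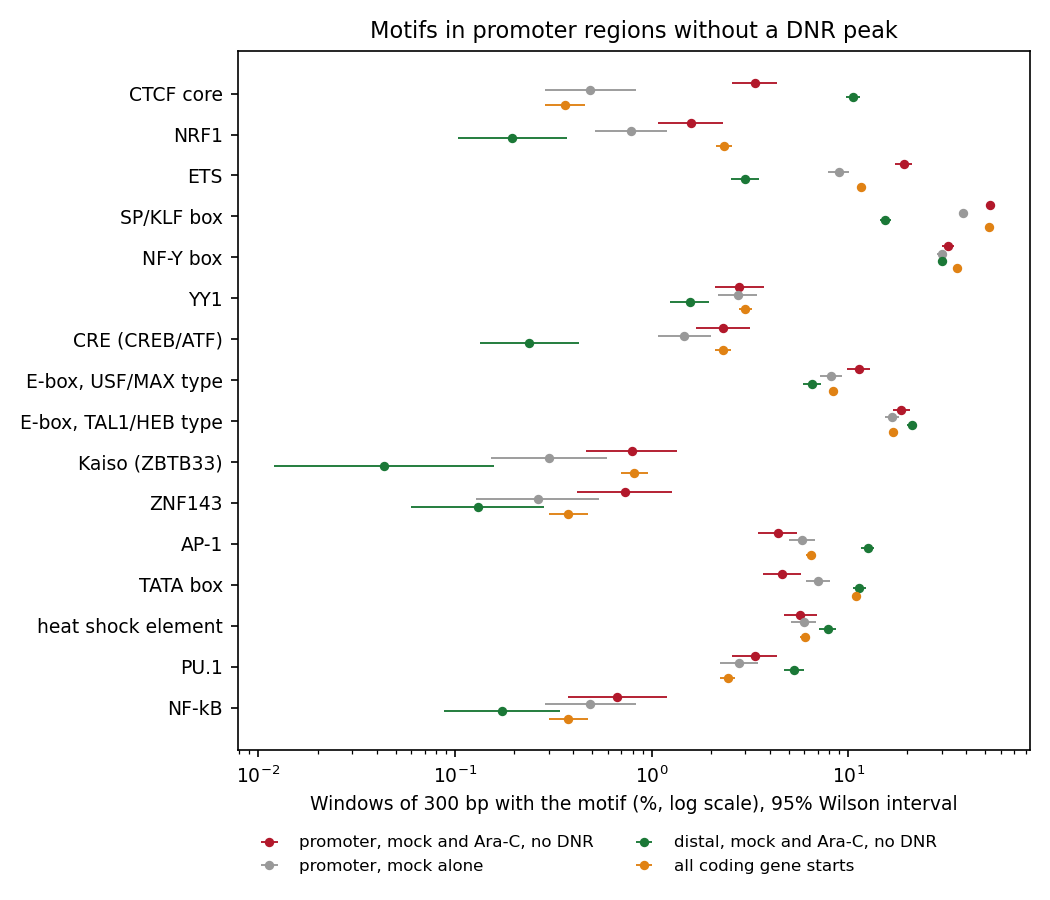
Share of 300 bp windows (%, log scale) with each of 16 motifs in promoter regions with mock and Ara-C peaks and no DNR peak, mock-alone promoter regions, distal regions with the same pattern and all coding gene starts, with bars for 95% Wilson intervals. The CTCF core stands at 3.35% in the first set and 0.361% at gene starts, and the ETS motif at 19.2% and 11.6%.

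Pairs of tRNA A and B boxes, as printed above, were in 17 regions (1.03%, 0.647 to 1.65%). They are matches to a consensus and were not tied to annotated tRNA genes, so a match such as that near CYTH4, with a GC content of 35.0% and 0 CpG in the printed stretch, is not shown to be a tRNA gene. In windows of 300 bp the share was 0.852% (0.508 to 1.42%), against 4.26% (1.96 to 8.97%) of promoter regions of all 3 lists, 1.13% (0.863 to 1.48%) of distal regions and 0.113% (0.0384 to 0.331%) of mock-alone promoter regions. At coding gene starts a pair was in 0.0680% of the windows used for the other motifs and within 1 kb of the start in 0.727% (0.616 to 0.857%), a longer window that takes in the positions where the pairs lay. Regions with a pair were wide, with a median of 500 bp, and 16 of the 17 midpoints were upstream of the coding TSS. The median distance to it over all 17 was 519 bp. Among regions of 500 bp or more, 11 of 306 held a pair (3.59%, 2.02 to 6.32%). HMGN4, AGBL5 and CYTH4 led in width, and others were at LASP1, ANG, BCAR3, POLG and POLR3E, the last a subunit of RNA polymerase III. Of 24 promoter regions with mock and Ara-C peaks and a pair, 17 had no DNR peak (70.8%, 50.8 to 85.1%). Region width and mock peak width are unlike measures, and the mock peaks of the 17 ran from 150 to 1000 bp. Over all promoter regions with both peaks, 90.5% (87.2 to 93.0%) had no DNR peak at mock widths of 300 to under 400 bp. At 400 to under 600 bp it was 85.6% (80.8 to 89.3%). The part of width in the 70.8% was not tested.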

How the data were processed

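SUMO-2/3 ChIP-seq was made from HL-60 cells as 3 immunoprecipitated and 3 input samples, and the inputs were not analysed here. Per the study's methods, the authors aligned reads to hg19 with CASAVA 1.8.2, kept uniquely placed reads, removed piled-up reads, extended reads, binned the signal in 50 bp steps, scaled it and subtracted input with Pasha, and called peaks with a signal threshold of 32 in runs longer than 100 bp with gaps of at most 100 bp. The limit on piled-up reads was 5 for mock and 4 for Ara-C and DNR. The extension was 210 bp for mock and Ara-C and 220 bp for DNR. The part of these differences in the peak calls was not tested. The deposited values are peak positions (chromosome, start, end), with no score or count. Depth is unknown, and a fixed threshold makes a call depend on scaling and background. Starts were read as 1-based. Genes and TSSs came from GENCODE 44 lifted to GRCh37, with 55871 coding TSSs. The mitochondrial chromosome was left out.

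Touching peaks were merged, with 0 differences from bedtools 2.31.1, and sequences were read with pysam 0.24.0 (Python 3.11.15). The merging, promoter and motif steps were checked on simulated data. Named genes were the 10 widest regions, the 5 nearest to and 5 farthest from a DNR peak, the 5 with a CTCF motif closest to a TSS, the 3 with the largest width difference in each direction, the 2 on each side of the 1 kb edge, and up to 4 of the widest per gene list. A few genes that meet these rules are not reported here. Others are named as the remaining members of short lists, as holders of a printed sequence, or for the tRNA boxes and histone widths, which were picked after their values were seen. The members, lists and motifs were chosen with earlier results of these data known. The gene list file was edited once with the peak files in hand, before any value per list was computed: kinases and methyltransferases were taken out of the translation factor list, and the zinc finger list was renamed. No test was possible with 1 library per condition.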

Additional observations from a re-analysis of the deposited data

How the results depend on the processing

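No paired analysis was possible because the 3 conditions are 1 pooled library each and no test was made. 10 other settings and 1 added after seeing the data, leaving out chromosomes 13, 18 and 22, were applied to 8 results. Of 88 values, 72 stayed within 1.5 times a count or within the 95% interval of a share or median. The interval of the median replaced a wider band, the quartiles, after the values had been seen.

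The medians as reported are 350 bp for width, 143 bp for distance to the TSS, 62.0% for GC content and 20025 bp for the gap to a DNR peak. With peaks of at least 200 bp they became 400 bp, 131.5 bp and, for the gap, 43200 bp. Merging peaks up to 500 bp apart gave 450 bp, 171 bp, 61.4% and 21750 bp, and a share without a DNR peak of 89.7%. Distance to the TSS was 115 bp within 500 bp of a TSS, 178 bp in the window 2 kb upstream and 170 bp from the 5′ end of each gene. GC content was 61.3% in the 2 kb upstream window and 61.0% with genes of every type. The CTCF share was 4.62% in the upstream window. The share without a DNR peak was 88.8% when a DNR peak within 500 bp also counted. Without chromosomes 13, 18 and 22 the gap was 22675 bp. The cause of these shifts was not tested, beyond the fewer peaks or different windows that define each alternative.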
